A study of Mus musculus with 15 samples.

Results

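The effect of dihydrotestosterone (DHT) replacement on the aorta of castrated mice was examined across all genes. The libraries labelled orchiectomy with DHT were compared with those labelled orchiectomy, 5 against 5, which are 10 of the 15 RNA-Seq samples. All mice were C57BL/6 wild-type males aged 10 months. Mice of both groups lost their testes, recovered for 2 weeks and then received Aldo-salt for 7 days, which is aldosterone at 200 µg/kg per day from an osmotic minipump together with drinking water that held 0.9% NaCl and 0.2% KCl. One group also had an implanted DHT pellet, whose dose for these libraries is not given in the sources used here. The remaining 5 libraries, from mice on Aldo-salt with their testes in place, served as controls, and their levels are given as the background. Each library was made from the poly(A) RNA of 1 whole aorta and holds the RNA of all its cell types and of any tissue left on it.

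DHT is the strongest natural androgen and is made from testosterone. Androgens act largely by changing transcription, through short palindromic DNA sequences called androgen response elements. The glucocorticoid and mineralocorticoid receptors read nearly the same sequences, and several androgen-responsive genes also respond to corticosteroids. Unlike testosterone, DHT is not turned into estrogen by aromatase. In the aorta, androgens are known to act on smooth muscle, endothelium, fibroblasts and leukocytes.

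Libraries of orchiectomized mice held 9574333 to 13816864 counts on genes, those with DHT 8268957 to 11822945 and the controls 10029495 to 13713880. The aortic identity of the libraries was clear from their smooth muscle genes. *Myh11*, the smooth muscle myosin, ranged from 2150 to 6020 CPM (counts scaled to the size of the library) after orchiectomy and from 5580 to 7230 CPM with DHT, and *Acta2*, smooth muscle actin, from 3680 to 6950 CPM and from 6080 to 8070 CPM. Among the orchiectomized mice 2 libraries stood apart. Replicate 2 held lung and heart transcripts: the lung epithelial list summed to 15600 CPM there, against 64.6 to 190 CPM in the other 4 orchiectomized libraries and 39.6 to 56.5 CPM with DHT. The lung gene *Bpifa1* was also at 60.1 CPM in replicate 4, against at most 7.14 CPM with DHT. *Sftpc*, another, had 13, 28 and 57 counts in replicates 1, 3 and 4, 0 in replicate 5 and 0 to 2 with DHT. Fits without replicate 2 are therefore not free of lung RNA. The cardiac list of replicate 2 summed to 9080 CPM, against at most 353 CPM in the other 4. Heart RNA was present elsewhere too, at 305 to 1200 CPM with DHT and at most 1860 CPM in the controls. Replicate 3 was high for genes of antigen receptor assembly, which immature T and B cells both use. *Rag1*, which cuts the DNA, was at 53.5 CPM there, against at most 3.37 CPM in the other 4 and at most 0.36 CPM with DHT, and *Dntt*, which adds bases at the joints, was at 18.8 CPM, against at most 2.20 CPM in the other 4. *Ptcra*, a receptor chain of immature T cells, had only 2 counts in this library, and the thymus list summed to 156 CPM there and to as much as 147 CPM in a control. Skeletal muscle genes varied in every group, from 213 to 812 CPM in sum with DHT and from 93.7 to 866 CPM in the controls, while the orchiectomized libraries other than replicate 2 reached at most 154 CPM. Counts of called genes are therefore given with and without replicate 2, and in places without replicates 2 and 3; where a gene list has no count without replicate 2, it was the same as with all libraries. In whole tissue, fewer cells of a type and less RNA per cell cannot be told apart.

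**Figure D1:**
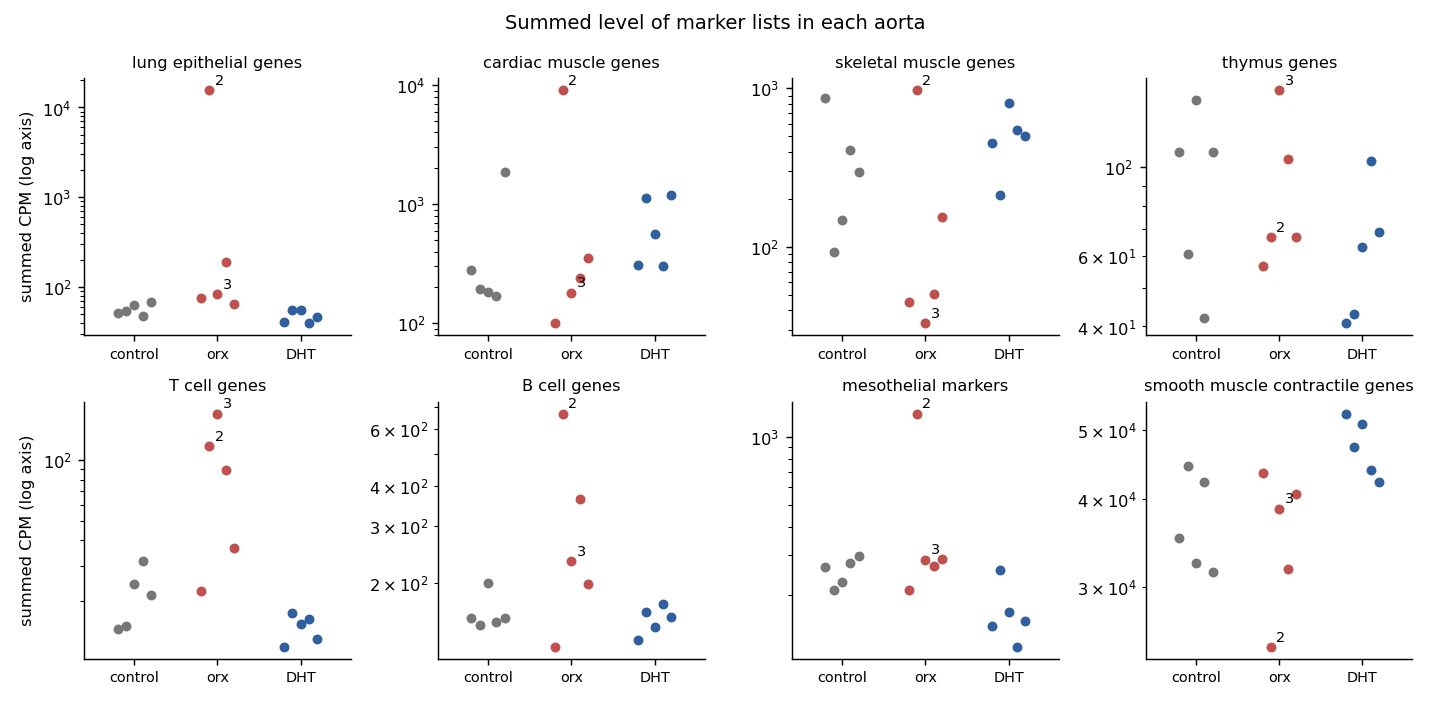
Summed CPM of 8 marker lists in each aorta, on log axes, with 1 point per library for controls, orchiectomized mice (orx) and orchiectomized mice with DHT; digits mark orchiectomy replicates 2 and 3. Replicate 2 is far above all other libraries for lung genes (15600 CPM), replicate 3 is the highest of its group for T cell genes, and all DHT libraries lie below all orchiectomized libraries for T cell genes.

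DHT lowered more genes than it raised. Of 14121 genes tested, 130 were higher and 536 lower in the mice with DHT at an adjusted P value under 0.05 (edgeR, Benjamini-Hochberg over all genes tested), which is 0.921% and 3.80% of the genes. The raised genes changed by a median log2 fold change of 0.75 and the lowered genes by -1.30, and a change of more than 1 on the log2 scale was found for 49 of the raised and 341 of the lowered genes. The groups of 5 did not overlap in 110 of the 130 and 396 of the 536 genes. Over all tested genes, 2.09% were higher and 4.34% lower in all DHT libraries than in all orchiectomized libraries. The DHT libraries also lay above all 5 controls for 55 of the raised genes and below all 5 controls for 123 of the lowered ones, against 1.78% and 1.79% of all tested genes. Orchiectomy replicate 2 had the highest value of its group in 349 of the 536 lowered genes, and replicate 3 in 115.

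Without orchiectomy replicate 2, 118 genes were higher and 277 lower, or 0.832% and 1.95% of the genes tested then. All 666 genes called with every library kept their direction, 74 of the raised and 264 of the lowered genes were called again, and 34 of the lowered genes shrank by more than 1 on the log2 scale. The number of lowered genes also moved by more than 1.5 times without orchiectomy replicates 3 (303, or 2.13% of genes, with 94 or 0.661% raised) or 4 (200), and without DHT replicates 1 (232), 3 (151), 4 (175) or 5 (138). The raised genes numbered 217 without orchiectomy replicate 1, 52 without replicate 4, and 71, 43, 59 and 43 without DHT replicates 1, 3, 4 and 5. Leaving out orchiectomy replicates 2 and 3 together, chosen after seeing the data, left 23 raised and 66 lowered genes (0.161% and 0.461%). The shares of all genes tested in each fit are the background for the counts of the gene lists below. With the looser threshold of an unadjusted P value under 0.01, the raised genes numbered 347 (2.46%) and the lowered genes 1026 (7.27%). A core of 36 raised and 108 lowered genes was called with all libraries and in each of the 15 fits that left out 1 library, and 63 of the 101 called genes named here belong to it.

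**Figure D2:**
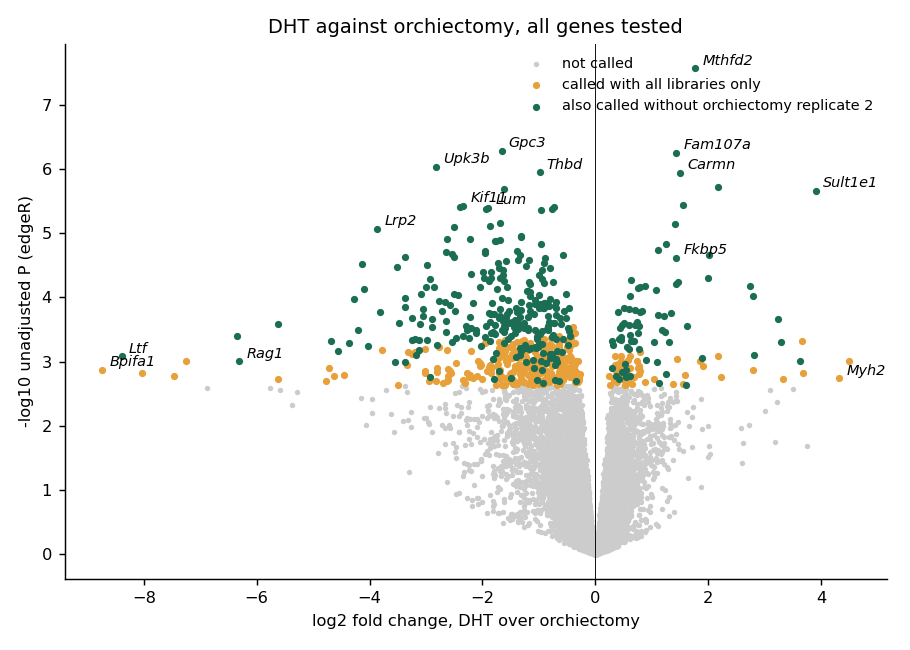
Log2 fold change of DHT over orchiectomy (x) against -log10 of the unadjusted P value from edgeR (y) for all 14121 genes tested, with 1 point per gene. Called genes are green when also called without orchiectomy replicate 2 and orange when not; the lowered side is wider, and the genes with the largest decreases, such as *Ltf* and *Bpifa1*, are not those with the smallest P values.

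**Figure D3:**
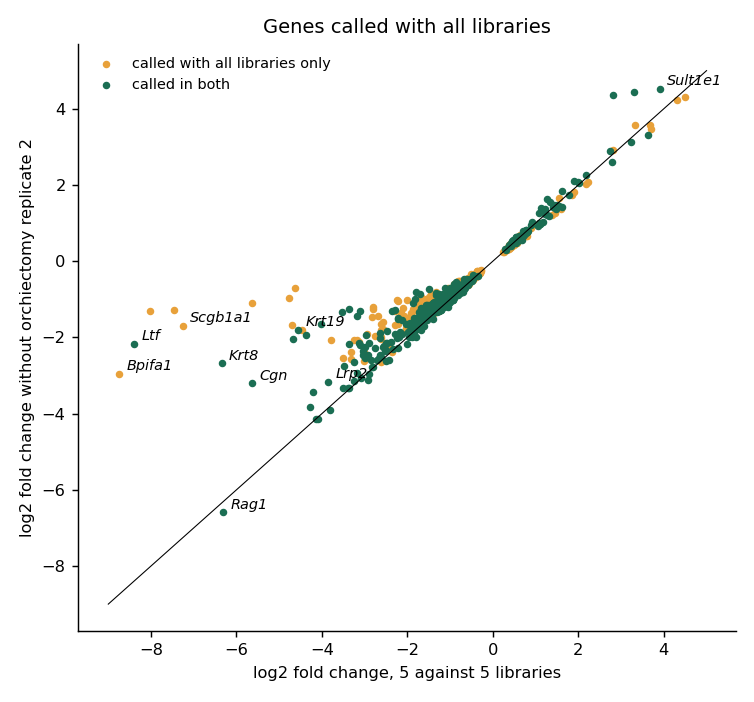
Log2 fold changes of the 666 called genes with all libraries (x) and without orchiectomy replicate 2 (y), with 1 point per gene and the line of equal values. Most points are near the line, all keep their sign, and airway genes such as *Bpifa1*, *Scgb1a1* and *Ltf* are far above it.

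The raised genes were led by *Mthfd2*, which encodes the mitochondrial enzyme that oxidizes methylene-tetrahydrofolate. It was at 20.2, 13, 11.7, 15.2 and 19 CPM in the orchiectomized mice and at 58.2, 57.5, 55.8, 38.1 and 60.5 CPM with DHT. The groups were far apart, and the controls (16.9 to 24.4 CPM) were below all DHT libraries too. The log2 fold change was 1.77 (SE 0.17, adjusted P = 0.000383) and stayed at 1.73 without orchiectomy replicate 2. Among 18 genes of serine and folate one-carbon metabolism only *Mthfd2* was called higher, and only *Phgdh*, the first enzyme of serine synthesis, was called lower, with a log2 fold change of -0.73 (SE 0.15, adjusted P = 0.0194). *Phgdh* was not called without DHT replicates 3 or 4 or without orchiectomy replicate 4. *Shmt2*, the mitochondrial serine hydroxymethyltransferase that feeds the same folate pool, stayed between 28.5 and 33.8 CPM in all 10 libraries, with a log2 fold change of 0.04 (SE 0.08). *Mthfd1l*, the next mitochondrial enzyme of the pathway, had a log2 fold change of -0.60 (SE 0.18) and was not called (adjusted P = 0.0682).

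Amino acid stress genes, which share the transcription factor ATF4 with *Mthfd2*, were called for 1 of 26, higher. This was *Slc7a5*, the large neutral amino acid transporter. Its levels were 15, 13, 16.7, 13.5 and 18.8 CPM without DHT and 23.9, 25.2, 20.3, 22.2 and 33.1 CPM with it, so that the groups did not overlap (log2 fold change 0.70, SE 0.15, adjusted P = 0.0197). The median over the 26 genes was 0.05, against -0.02 over all genes tested. None of the 20 cytosolic aminoacyl-tRNA synthetases was called, and their median was -0.04.

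Genes listed as targets of androgens and corticosteroids formed the next group. The lists were chosen with earlier results of these data known, so their counts describe the lists and test nothing. Of 20 tested genes on the androgen list, which also holds the steroid receptors themselves, 5 were higher and 1 was lower (4 and 1 without orchiectomy replicate 2; at the fewest 3 higher, without DHT replicate 4), and the list's median was 0.03. Of 17 tested corticosteroid targets, some of which are on both lists, 3 were higher (2 without orchiectomy replicate 2) and 0 lower; 9 of the 17 had a negative fold change, and the median was -0.01 (0.33 without replicate 2). The lowest of these was *Scnn1a*, a subunit of the epithelial sodium channel, with a log2 fold change of -3.26 (SE 1.12) that was not called (adjusted P = 0.104) and turned to 0.44 without orchiectomy replicate 2, which had 96.9 CPM against 1.40 to 1.75 CPM in the other 4. *Fkbp5*, a co-chaperone of steroid receptors, was at 20.7, 30.0, 47.0, 25.2 and 25.6 CPM in the orchiectomized mice and at 61.6, 103, 75.1, 61.5 and 104 CPM with DHT. All DHT values were higher than all others (controls 21.6 to 43.6 CPM), and the log2 fold change was 1.44 (SE 0.24, adjusted P = 0.00777). *Fam107a*, an actin-binding protein induced by glucocorticoids and by stress, was at 7.86, 10.4, 11.7, 9.97 and 9.60 CPM without and at 25.7, 26.4, 22.8, 25.8 and 33.7 CPM with DHT. Here the spread within each group was small against the gap between them (log2 fold change 1.44, SE 0.17, adjusted P = 0.00266). *Mt2*, a metal-binding metallothionein, had a log2 fold change of 1.43 (SE 0.26, adjusted P = 0.0113), with 25.3 to 57.3 CPM without and 83.7 to 157 CPM with DHT. *Zbtb16*, a zinc-finger repressor induced by several steroids, rose from a mean of 49.9 to 102 CPM (adjusted P = 0.0432), but the groups overlapped, since orchiectomy replicate 3 had 84.9 CPM, and the gene was called in only 4 of the 15 fits that left out 1 library, not without replicate 2 (adjusted P = 0.0908). *Sgk1*, a kinase known as a mineralocorticoid and glucocorticoid target, was not called, with means of 83.0 and 82.7 CPM and a log2 fold change of -0.01 (SE 0.15).

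**Figure D4:**
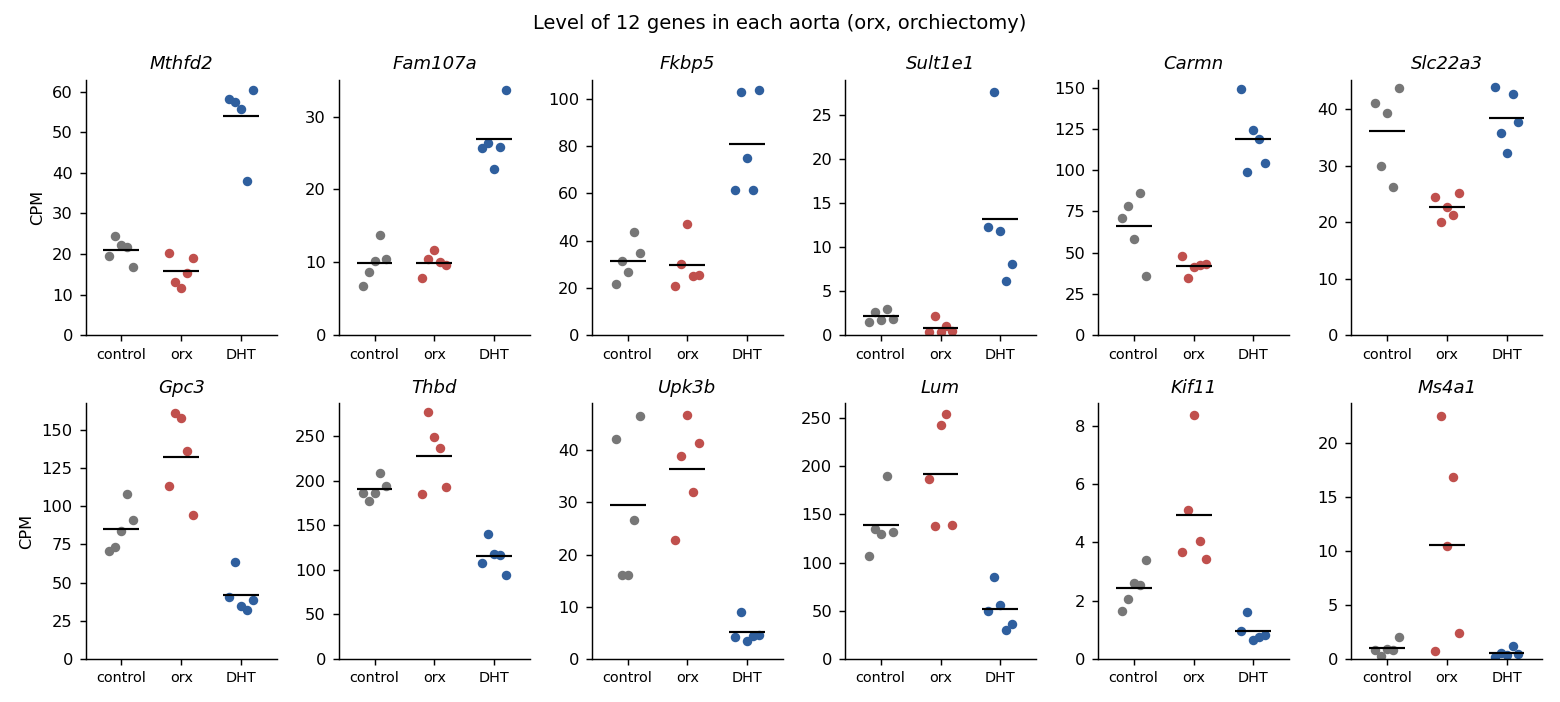
CPM of 12 genes in each aorta, on linear axes that start at 0, with 1 point per library and a bar at the mean of each group of 5 (controls, orchiectomized mice or orx, and orchiectomized mice with DHT). For *Mthfd2*, *Fam107a*, *Fkbp5*, *Sult1e1* and *Carmn* all DHT points are above all other points, *Slc22a3* with DHT overlaps with the controls, *Gpc3*, *Thbd*, *Upk3b*, *Lum* and *Kif11* are lowest with DHT, and *Ms4a1* is spread widely after orchiectomy.

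The androgen response element is short and can be looked for in promoters. Only promoters with a match are shown here, those of *Fam107a*, *Dpp4* and *Sgk1*. The windows come from RefSeq on GRCm38.p6, the RefSeq form of mm10, and run from 250 bases before to 50 bases after a start site. The half-site AGAACA was searched on both strands, as was the full element, which is this half-site followed after 3 bases by its reverse complement and therefore always holds both half-sites. Capitals mark the half-sites and the full element, and also the E-box CACGTG in *Sgk1*, which overlaps a half-site there. *Fam107a* had the half-site on each strand in a window at chr14:8309728-8310027 on the minus strand. *Dpp4*, a lowered gene of adventitial fibroblasts, had 1 half-site at chr2:62412182-62412481 on the minus strand. *Sgk1*, which was not called, had the only full element among the tested genes, at chr10:21993640-21993939 on the plus strand.
Fam107a: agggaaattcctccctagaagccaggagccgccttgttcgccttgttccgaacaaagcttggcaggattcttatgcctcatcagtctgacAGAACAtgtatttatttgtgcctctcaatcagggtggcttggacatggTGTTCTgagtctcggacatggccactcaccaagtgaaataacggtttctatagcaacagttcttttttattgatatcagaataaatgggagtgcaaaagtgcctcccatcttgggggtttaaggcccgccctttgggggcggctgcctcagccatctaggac
Dpp4: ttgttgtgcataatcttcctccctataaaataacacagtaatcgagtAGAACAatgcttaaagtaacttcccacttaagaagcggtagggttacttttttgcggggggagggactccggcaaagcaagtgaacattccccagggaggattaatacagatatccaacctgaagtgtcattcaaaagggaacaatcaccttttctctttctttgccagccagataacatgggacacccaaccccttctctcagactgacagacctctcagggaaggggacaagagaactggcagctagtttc
Sgk1: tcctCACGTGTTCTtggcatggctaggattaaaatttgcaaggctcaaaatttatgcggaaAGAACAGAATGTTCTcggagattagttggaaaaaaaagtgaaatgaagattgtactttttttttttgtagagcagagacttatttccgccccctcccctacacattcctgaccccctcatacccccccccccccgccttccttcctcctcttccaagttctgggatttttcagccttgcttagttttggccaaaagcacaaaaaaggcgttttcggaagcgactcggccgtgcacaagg

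The half-site was common everywhere. The half-site was present in 14 of the 88 raised genes with a promoter in the table (15.9%), in 73 of 393 lowered genes (18.6%), in 14.8% of the tested genes and in 21.3% of all 27025 genes of the table. The full element was in 3 of those 27025 genes and in 0 of the called ones. The windows of *Mthfd2*, *Mt2*, *Gpc3*, *Upk3b* and *Kif11* held none of these letters, which says nothing of sites elsewhere. A match is a description of the sequence and not a bound site.

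A smooth muscle locus was also higher. *Carmn*, a long noncoding RNA of contractile smooth muscle, was at 47.7, 34.4, 41.0, 42.5 and 43.0 CPM without and at 149, 98.8, 124, 119 and 104 CPM with DHT. The groups were far apart and the controls (35.9 to 86.3 CPM) lay below every DHT library (log2 fold change 1.51, SE 0.19, adjusted P = 0.00269). *Bvht*, a neighboring noncoding RNA known from heart development, followed with means of 21.6 and 51.9 CPM, no overlap and a log2 fold change of 1.26 (SE 0.20, adjusted P = 0.00676). *Mir143* and *Mir145a*, microRNA genes that share the *Carmn* locus and whose counts in poly(A) RNA come from longer transcripts and not from mature microRNA, were chosen after their values were seen. They had log2 fold changes of 1.59 (SE 0.41, adjusted P = 0.0412) and 1.38 (SE 0.38, adjusted P = 0.0485), at most 7.53 CPM, and were called in only 6 and 3 of the 15 fits that left out 1 library, not without replicate 2. Reads of these overlapping genes cannot be assigned to 1 of them with certainty. Of 17 smooth muscle regulators, *Carmn* alone was called higher, and 0 were lower. *Klf4*, which represses contractile genes, had a log2 fold change of -0.58 (SE 0.17, adjusted P = 0.0668).

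The contractile genes themselves were not called with all libraries (0 of 26), although all 26 had a positive fold change, with a median of 0.37 (0.32 without replicate 2). Only *Des*, the muscle filament gene desmin, was called higher without replicate 2, which had 859 CPM of it against 154 to 235 CPM in the other 4, and without orchiectomy replicate 1 the number rose to 6, *Myl9* and *Tagln* among them. Orchiectomy replicate 2, with its lung and heart RNA, had the lowest sum of the list. *Myl9*, the regulatory myosin light chain, had the smallest P value among them. Its levels of 2770, 1480, 1670, 1650 and 2200 CPM without DHT overlapped with 2910, 2880, 3570, 2490 and 2780 CPM with it, since orchiectomy replicate 1 was above DHT replicate 4 (log2 fold change 0.58, SE 0.18, adjusted P = 0.0773). *Tagln*, an actin-binding protein, had a log2 fold change of 0.45 (SE 0.18), *Myh11* one of 0.53 (SE 0.22) and *Acta2* one of 0.38 (SE 0.17), and none of these was called. The promoter of *Myl9* (GRCm38.p6, chr2:156775214-156775513, plus strand) holds a CArG box, the site of serum response factor, shown in capitals. This box was present in 4 of 21 contractile genes with a promoter in the table (19%; *Ldb3*, *Myl6*, *Myl9* and *Vcl*), against 1.81% of all promoters.
Myl9: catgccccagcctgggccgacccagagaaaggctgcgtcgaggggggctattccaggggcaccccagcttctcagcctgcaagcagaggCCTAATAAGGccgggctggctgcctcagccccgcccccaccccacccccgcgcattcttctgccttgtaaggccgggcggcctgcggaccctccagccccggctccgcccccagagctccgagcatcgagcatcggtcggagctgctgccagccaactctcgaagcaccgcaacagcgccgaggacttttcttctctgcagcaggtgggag

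Other raised genes are not joined by a pathway list. *Sult1e1*, the sulfotransferase that inactivates estrogens, was at 0.323, 2.12, 0.35, 1.03 and 0.488 CPM without and at 12.3, 27.7, 11.9, 6.17 and 8.07 CPM with DHT. The controls (1.54 to 2.97 CPM) were also below all DHT libraries, and the log2 fold change was 3.91 (SE 0.53, adjusted P = 0.00346) with every library and 4.53 without orchiectomy replicate 2. *Ibsp*, bone sialoprotein, was at 0.687 to 2.05 CPM without and 4.49 to 6.04 CPM with DHT (log2 fold change 2.17, SE 0.29, adjusted P = 0.00346). *Adamts14*, a protease that trims procollagen, rose from a mean of 6.30 to 16.7 CPM, and *Adam11*, a catalytically inactive member of the ADAM family, from 48.8 to 105 CPM, both without overlap. *Vstm2b* rose from 4.53 to 13.3 CPM, *Cpne7*, a calcium-dependent phospholipid-binding protein, from 0.776 to 3.20 CPM, and *Nxnl2*, a thioredoxin-like protein, from 0.805 to 3.20 CPM. *Hephl1*, a copper ferroxidase, had 0.699 to 2.85 CPM without and 5.86 to 27.5 CPM with DHT, while the controls were at 6.37 to 25.8 CPM, so that DHT libraries and controls covered about the same range. *Slc15a5*, of the peptide transporter family, had a log2 fold change of 3.24 (SE 0.67, adjusted P = 0.0183). *Serpina3k* and *Serpina3m* had log2 fold changes of 3.62 (SE 0.89) and 3.30 (SE 0.74), and were called in 9 and 13 of the 15 fits that left out 1 library. They belong to a family of near-identical genes whose reads can be split between copies, and *Serpina3k* was at 0 in 2 orchiectomized libraries, so that its fold change depends on the fit.

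*Slc22a3*, an organic cation transporter that takes up monoamines, was at 24.4, 20, 22.6, 21.2 and 25.2 CPM without and at 44.0, 35.8, 32.3, 42.6 and 37.8 CPM with DHT. The groups did not overlap, and the controls (26.2 to 43.7 CPM) overlapped with the DHT libraries (log2 fold change 0.76, SE 0.14, adjusted P = 0.0116). *Slc22a2*, a transporter of the same family nearby on chromosome 17 that was chosen after its values were seen, had a log2 fold change of 1.11 (SE 0.23, adjusted P = 0.0173), without overlap between the groups. The gene bodies lie at chr17:12419972-12507704 (*Slc22a3*) and chr17:12584189-12628489 (*Slc22a2*) on GRCm38.p6.

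The lowered genes were led by *Gpc3*, a glypican, which is a heparan sulfate proteoglycan held on the cell surface. It was at 113, 161, 158, 136 and 94.6 CPM in the orchiectomized mice and at 40.4, 63.8, 34.9, 32.1 and 38.6 CPM with DHT. All DHT libraries were below all controls (70.9 to 108 CPM), which reached into the range of the orchiectomized mice (log2 fold change -1.66, SE 0.20, adjusted P = 0.00266). It was the only one of 9 tested glypicans and syndecans that was called. *Thbd*, thrombomodulin, which turns thrombin into an anticoagulant on the endothelium, was at 185, 278, 249, 237 and 193 CPM without and at 108, 140, 118, 117 and 94.6 CPM with DHT, also below all controls (177 to 209 CPM), with a log2 fold change of -0.99 (SE 0.13, adjusted P = 0.00269). *St3gal6*, a sialyltransferase, fell from a mean of 39.9 to 13 CPM, *Ces1f*, a carboxylesterase, from 43.1 to 13.5 CPM, and *1500015O10Rik* from 12.7 to 3.29 CPM. Smaller but regular decreases were those of *Trib2*, a pseudokinase, from 39.5 to 23.3 CPM and *Rftn1*, a lipid raft protein, from 30.5 to 15.7 CPM. In all 5 of these genes the groups did not overlap and the call held in each fit that left out 1 library.

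Most mesothelial genes fell. Mesothelium is the flat epithelium on the outer surfaces of organs and of the tissue around vessels, and it makes keratins and uroplakins. Of 14 tested markers 11 were lower and 0 higher, with a median log2 fold change of -2.84 (-2.11 without orchiectomy replicate 2, with 11 lower again, and -2.05 without replicates 2 and 3, with 6 lower); the lowest number was 6, without DHT replicates 4 or 5. *Upk3b*, a uroplakin of mesothelium, was at 22.8, 38.9, 46.8, 32.0 and 41.3 CPM without and at 4.10, 8.92, 3.33, 4.32 and 4.65 CPM with DHT. No DHT library came near the lowest orchiectomized one, and the controls (16.0 to 46.5 CPM) overlapped with the orchiectomized mice, although 2 of the 5 lay below all of them (log2 fold change -2.83, SE 0.36, adjusted P = 0.00269). *Lrrn4*, a membrane protein of mesothelium, was at 4.52 to 10.2 CPM without and 0.385 to 1.98 CPM with DHT, *Gpm6a* at 16.3 to 31.8 and 3.83 to 11.7 CPM, and *Bnc1*, a zinc-finger factor of epithelia, at 1.87 to 4.63 and 0 to 0.617 CPM. *Krt8* and *Krt7*, keratins that lung epithelium also makes, had 278 and 127 CPM in orchiectomy replicate 2 and at most 6.99 and 6.12 CPM in the other 4, and their log2 fold changes shrank from -6.35 to -2.68 and from -4.68 to -2.05 without it. Both were called in 11 of the 15 fits that left out 1 library, and not without DHT replicates 1, 3, 4 or 5.

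Genes of the adventitia and of the extracellular matrix fell in part. The fibroblast list had 7 of 20 genes lower and 0 higher with a median of -0.49 (3 lower and -0.41 without orchiectomy replicate 2, and 3 also without orchiectomy replicates 3 or 4 or DHT replicates 1, 3, 4 or 5). *Dpp4*, a cell surface peptidase, was at 12.5, 29.2, 18.3, 19.7 and 10.4 CPM without and at 3.68, 5.86, 2.44, 2.72 and 2.28 CPM with DHT, without overlap (log2 fold change -2.39, SE 0.34, adjusted P = 0.0036). *Sfrp4*, a secreted Wnt inhibitor, fell by 1.80 on the log2 scale (SE 0.36, adjusted P = 0.0171), with orchiectomy replicate 2 (52.0 CPM) inside the range of the DHT libraries, and was not called without DHT replicates 3 or 5. *Dpt*, a dermatopontin that binds collagen, had a log2 fold change of -0.91 (SE 0.20, adjusted P = 0.0243) and was not called without replicate 2 (adjusted P = 0.053) and in 5 other such fits.

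*Lum*, lumican, a small proteoglycan that spaces collagen fibrils, was at 187, 138, 243, 254 and 139 CPM without and at 49.7, 84.7, 56.3, 30.1 and 36.0 CPM with DHT. Orchiectomy replicate 2 was at the lower end of its group here, and the fold change was as large without it (log2 fold change -1.90, SE 0.27, adjusted P = 0.0036, and -1.99 without replicate 2). Collagen chains were called lower for 5 of 29 genes and higher for 0, with a median of -0.17 (5 and -0.31 without orchiectomy replicate 2, 3 and -0.04 without orchiectomy replicate 3, and 2 without orchiectomy replicate 4 or DHT replicates 1, 3, 4 or 5). *Col14a1*, a fibril-associated collagen, was at 278, 182, 536, 364 and 208 CPM without and at 120, 111, 86.3, 95.8 and 77.0 CPM with DHT (log2 fold change -1.68, SE 0.26, adjusted P = 0.00653), and *Col12a1*, of the same class, fell by 1.15 (SE 0.21, adjusted P = 0.0113). *Col8a1*, a short-chain collagen of vessels, had a log2 fold change of -0.76 (SE 0.18, adjusted P = 0.0299) and was called in 9 of the 15 fits that left out 1 library.

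Elastic fiber genes were lower for 5 of 21 and higher for 0, with a median of -0.26 (5 and -0.33 without orchiectomy replicate 2, and at the fewest 4). The called genes were fibulins and microfibril proteins. *Efemp1* (fibulin-3) was at 58.0 to 126 CPM without and 23.8 to 49.1 CPM with DHT, *Fbln2* at 150 to 271 and 87.4 to 130 CPM, *Fbln1* at 173 to 312 and 95.2 to 163 CPM, and *Mfap5* at 167 to 229 and 84.3 to 136 CPM, with no overlap in any of the 4. Of 26 matrix proteases and inhibitors on the list 3 were lower and 1 was higher. *Adamts14*, named above among the raised genes, is not on this list. *Mmp2*, gelatinase A, was at 179, 232, 207, 189 and 137 CPM without and at 96.7, 120, 98.3, 70.6 and 98.5 CPM with DHT (log2 fold change -0.96, SE 0.15, adjusted P = 0.00676) and was called in every fit that left out 1 library. *Mmp3*, stromelysin, fell by 0.81 (SE 0.20, adjusted P = 0.0318) and *Mmp12*, the macrophage elastase, by 1.96 (SE 0.43, adjusted P = 0.0236), but without DHT replicates 3, 4 or 5 only 1 protease was called lower. *Adamts15*, a proteoglycan-cleaving enzyme, was higher at 0.74 (SE 0.18, adjusted P = 0.0329) with overlapping groups and was called in 8 of the 15 fits that left out 1 library, not without orchiectomy replicate 2 (adjusted P = 0.0512).

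**Figure D5:**
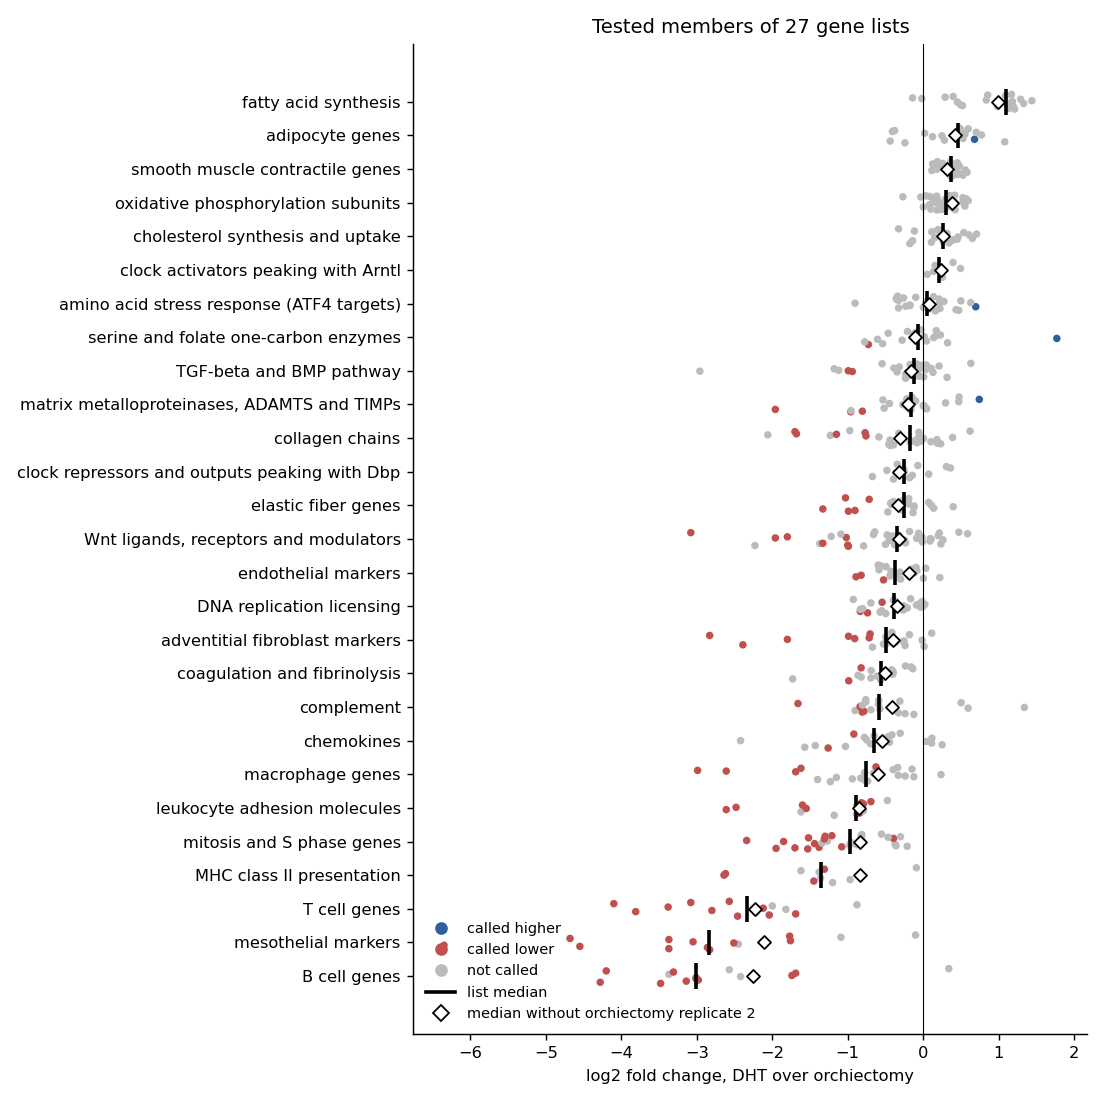
Log2 fold change of DHT over orchiectomy (x) for each tested member of 27 gene lists (1 point per gene; blue, called higher; red, called lower; gray, not called), with the list median as a bar and the median without orchiectomy replicate 2 as a diamond. Mesothelial, T cell and B cell genes are farthest to the left, fatty acid synthesis genes are to the right without any call, and the diamonds of the B cell and mesothelial lists lie closer to 0 than the bars.

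Many cell cycle genes were lower with DHT. Of 29 genes of mitosis and S phase, 14 were lower and 0 higher, all 29 had a negative fold change, and the median was -0.97 (8 lower and -0.84 without orchiectomy replicate 2; 3 lower and -0.81 without replicates 2 and 3). The number also fell to 8 without orchiectomy replicate 3 and was lowest, at 4, without DHT replicate 5. *Kif11*, a motor of the mitotic spindle, was at 3.66, 5.13, 8.39, 4.06 and 3.42 CPM without and at 0.941, 1.62, 0.641, 0.741 and 0.827 CPM with DHT, with the controls (1.63 to 3.38 CPM) between (log2 fold change -2.34, SE 0.33, adjusted P = 0.0036). *Top2a*, which untangles DNA in dividing cells, was at 10.5, 16.4, 23.4, 12.6 and 8.14 CPM without and at 2.65, 5.59, 3.46, 3.09 and 3.52 CPM with DHT. Orchiectomy replicate 3, the library with high *Rag1*, was the highest of its group for both, and the part of lymphoid cells in the difference was not tested. Without replicates 2 and 3, *Kif11* had a log2 fold change of -1.91 (adjusted P = 0.0219) and *Top2a* one of -1.49 (adjusted P = 0.0435). *Mcm3*, a subunit of the replication helicase, differed little between libraries of a group, with 15.7, 16.9, 16.8, 15.5 and 15.9 CPM without and 10.3, 9.73, 9.61, 9.50 and 9.31 CPM with DHT (log2 fold change -0.74, SE 0.10, adjusted P = 0.0036). Of 22 genes of replication licensing 3 were lower and 0 higher, with a median of -0.39 (1 called without DHT replicates 4 or 5).

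Most of the tested T cell and B cell genes were lower with DHT, and their numbers moved with single libraries. Only 14 of 23 measured T cell genes and 14 of 18 measured B cell genes passed the filter on low counts. A gene that is low with DHT can pass it through the other libraries, so these counts lean toward genes lower with DHT. The same holds for other lists with genes under the filter. Of 14 tested T cell genes 10 were lower and 0 higher, with a median of -2.34 (8 and -2.23 without orchiectomy replicate 2, 7 without replicate 3, 5 without DHT replicate 5, and 0 and -1.54 without orchiectomy replicates 2 and 3). The library sums of the list did not overlap. *Bcl11b*, a factor that sets the T cell fate, was at 0.646, 3.81, 12.5, 3.71 and 1.63 CPM without and at 0.0855, 0.45, 0.128, 0.494 and 0.103 CPM with DHT, the highest value being that of replicate 3 (log2 fold change -4.10, SE 0.76, adjusted P = 0.0119). *Tcf7*, a T cell factor that also acts in Wnt signaling, reached 40.5 CPM in replicate 3, 2.69 to 15 CPM in the other 4 and 1.24 to 2.05 CPM with DHT. *Il7r*, the interleukin 7 receptor, was at 0.969 to 7.42 CPM without and 0.517 to 0.901 CPM with DHT. *Cd3e*, a chain of the T cell receptor complex, was at 0.754, 5.93, 6.38, 3.44 and 1.55 CPM without and at 0.0855, 0.631, 0.385, 1.48 and 0.724 CPM with DHT, with overlapping groups (log2 fold change -2.46, SE 0.61, adjusted P = 0.0336, and 0.0674 without replicate 2), and it was called in 8 of the 15 fits that left out 1 library. The library labelled orchiectomy replicate 1 was close to the controls (0.724 to 1.37 CPM) for this gene.

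The B cell list had 10 of 14 genes lower and 0 higher with a median of -3.01, but only 4 without orchiectomy replicate 2 (median -2.26), 1 without DHT replicates 3 or 5 and 0 without orchiectomy replicates 2 and 3. *Ms4a1* (CD20) was at 0.754, 22.5, 10.4, 16.8 and 2.36 CPM without and at 0.171, 0.541, 0.385, 1.23 and 0.414 CPM with DHT. High values were those of replicates 2, 3 and 4, while replicate 1 was below 1 DHT library (log2 fold change -4.28, SE 0.82, adjusted P = 0.0146). Lymph node stroma genes moved with these lists, and their part in the lymphocyte values was not tested. Of 5 tested genes of that list 3 were lower and 0 higher (2 without orchiectomy replicate 2), and the 9 genes measured summed to 13, 74.2, 24.6, 39.7 and 28.5 CPM without and to 7.35, 18.6, 11.3, 8.52 and 22.3 CPM with DHT, with overlap. *Chst4*, a sulfotransferase of high endothelial venules, was at 1.40 to 3.45 and 0.103 to 0.811 CPM (log2 fold change -2.66, SE 0.52, adjusted P = 0.0152), and *Bst1*, an ectoenzyme of stromal and myeloid cells, at 3.98 to 8.94 and 0.941 to 3 CPM (log2 fold change -1.83, SE 0.36, adjusted P = 0.0154); both were called in all 15 fits that left out 1 library. The third was *Ltb*, a lymphotoxin chain that lymphocytes make. *Ccl21a*, a chemokine of node stroma, had 0 counts in all libraries, *Glycam1*, a ligand on node venules, 0 to 16 counts without and 0 to 1 with DHT, and *Madcam1*, an addressin, 0 to 1 and 0 to 3 counts. Of 11 genes of MHC class II presentation 4 were lower, and 1 without orchiectomy replicates 2 or 3 (0 without orchiectomy replicate 4 or DHT replicates 1, 3 or 5). *H2-Ab1*, an MHC class II chain, was at 125, 497, 138, 179 and 142 CPM without and at 44.2, 113, 98.8, 65.9 and 73.3 CPM with DHT, without overlap, but its adjusted P value rose from 0.0481 to 0.105 when replicate 2, by far the highest library, was left out, and it was called in only 4 of the 15 fits that left out 1 library.

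Some myeloid genes were lower as well. Of 22 macrophage genes 5 were lower and 0 higher, 21 had a negative fold change, and the median was -0.76 (3 lower and -0.60 without orchiectomy replicate 2, and at the fewest 2, without DHT replicate 1). *Itgax* (CD11c) was at 3.66, 15.8, 4.02, 4.67 and 2.52 CPM without and at 0.684, 0.541, 0.897, 1.23 and 0.517 CPM with DHT. All orchiectomized libraries were above all DHT libraries, also apart from replicate 2, without which the log2 fold change went from -2.99 to -2.26 and the adjusted P value from 0.00864 to 0.00686. *Ccl2*, the chemokine that draws in monocytes, had 2.62 to 5.78 CPM without and 1.03 to 2.56 CPM with DHT (log2 fold change -1.26, SE 0.29, adjusted P = 0.025), and was called in 10 of the 15 fits that left out 1 library, not without replicate 2 (adjusted P = 0.0502). It was 1 of 2 chemokines called lower among 19 (10.5%, against 3.80% of all genes tested), and 0 were called without orchiectomy replicates 2 or 4 or DHT replicates 1, 4 or 5. All 7 tested neutrophil genes had a negative fold change, and 2 of them, *Ltf* and *Ngp*, were lower, with 1 left without orchiectomy replicate 2 and 0 when any 1 of the DHT libraries was left out. *Ltf*, lactoferrin, which neutrophils and airway glands make, was at 1120 CPM in replicate 2 and 1.87 to 4.20 CPM in the other 4, against 0.36 to 0.987 CPM with DHT (log2 fold change -8.39, and -2.17 without replicate 2). Complement genes were lower for 4 of 20 and higher for 0, with 2 lower without orchiectomy replicates 2, 3 or 4 or DHT replicates 1, 3, 4 or 5. Without orchiectomy replicate 2, *C6*, a component of the membrane attack complex, was called higher. *C4a*, which is not on the list and was chosen after its values were seen, was higher, at 0.407 to 0.538 CPM without and 0.987 to 1.14 CPM with DHT (log2 fold change 1.22, SE 0.24, adjusted P = 0.0173), but it is a near-identical copy of the far more abundant *C4b*, which was not called, and reads can be split between them. *Cd55*, which protects cells from complement, had the largest decrease of the 4 (log2 fold change -1.66, SE 0.32, adjusted P = 0.0143, and -1.32 without replicate 2), and *C1ra*, a complement protease, was at 104 to 154 and 54.6 to 98.6 CPM without overlap.

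Of 14 leukocyte adhesion molecules 8 were lower (6 without orchiectomy replicates 2 or 3, 2 without DHT replicates 3 or 5) and 0 higher. The list joins endothelial genes with genes of the leukocytes themselves, and among the 8, *Selplg*, *Itgal*, *Itgb2* and *Itga4* are known from leukocytes. *Itgal*, an integrin chain, had a log2 fold change of -2.48 (SE 0.50, adjusted P = 0.0164). *Vcam1*, which endothelium shows to leukocytes, was at 107, 71.6, 90.4, 76.3 and 79.5 CPM without and at 54.6, 58.0, 42.3, 39.7 and 41.7 CPM with DHT, without overlap (log2 fold change -0.84, SE 0.16, adjusted P = 0.0156, not called without DHT replicates 3 or 5), and *Cd44*, the hyaluronan receptor, fell by 0.82 (SE 0.16, adjusted P = 0.016). Of 20 endothelial markers 3 were lower, with a median of -0.37 (1 and -0.18 without replicate 2, and 1 also without orchiectomy replicates 1 or 4 or DHT replicates 1, 3, 4 or 5). *Tek*, the angiopoietin receptor, was at 60.7 to 107 CPM without and 32.6 to 48.1 CPM with DHT, and *Pecam1* (CD31) at 300 to 371 and 200 to 266 CPM. Neither overlapped, but *Pecam1* was called in 8 of the 15 fits that left out 1 library, not without replicate 2 (adjusted P = 0.0652). The 35 tested genes of vasoactive pathways had a median of 0.06 and 3 lower members (8.57%, against 3.80% of all genes tested), which stayed called in each of the 15 fits that left out 1 library. *Ptgs1* (cyclooxygenase-1) was at 27, 40.7, 29.7, 30.3 and 25.3 CPM without and at 17.2, 21.4, 17.4, 15.1 and 16.6 CPM with DHT (log2 fold change -0.80, SE 0.14, adjusted P = 0.00895). *Ptgir*, the prostacyclin receptor, was at 8.93, 9.20, 12.9, 12.7 and 7.33 CPM and at 5.99, 6.04, 4.74, 5.31 and 4.96 CPM (log2 fold change -0.91, SE 0.18, adjusted P = 0.0153). *Edn1*, the precursor of the vasoconstrictor endothelin-1, was at 26.2, 34.1, 21.4, 26.8 and 35.2 CPM and at 14.2, 17.3, 9.49, 12.3 and 10.4 CPM (log2 fold change -1.17, SE 0.23, adjusted P = 0.0156), with the controls at 20.1 to 48.3 CPM. For all 3 genes every DHT library was below every orchiectomized library.

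Some Wnt ligands and modulators were lower. Of 40 Wnt pathway genes 7 were lower and 0 higher, with a median of -0.35 (5 and -0.33 without orchiectomy replicate 2, and 2 without DHT replicates 3 or 5). The 7 include *Tcf7*, which is also on the T cell list and highest in orchiectomy replicate 3. *Wnt5a*, a noncanonical Wnt ligand, was at 44.0, 31.9, 60.8, 42.1 and 31.2 CPM without and at 19.3, 21.3, 22.6, 24.2 and 17.4 CPM with DHT, without overlap (log2 fold change -1, SE 0.18, adjusted P = 0.0103). *Sfrp1*, a secreted Wnt inhibitor, was at 84.3 to 173 and 38.5 to 78.6 CPM and was called in 10 of the 15 fits that left out 1 library, not without orchiectomy replicate 3 (adjusted P = 0.0576). Of 39 genes of the TGF-β and BMP pathway 2 were lower, *Bmp4* and *Bmp6*, which is 5.13% of the list against 3.80% of all genes tested, and neither was called without DHT replicate 3. *Bmp4* was called in 6 of the 15 fits that left out 1 library and *Bmp6* in 14. *Bmp6* was at 93.5, 78.1, 73.3, 81.3 and 96.4 CPM without and at 52.9, 48.9, 37.0, 46.8 and 26.5 CPM with DHT (log2 fold change -0.99, SE 0.20, adjusted P = 0.016).

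Most genes of fatty acid synthesis and of oxidative phosphorylation had positive fold changes that did not pass the test. All but 2 of the 22 fatty acid synthesis genes had a positive fold change, with a median of 1.10 (0.99 without orchiectomy replicate 2), and 0 were called (at most 2, without control replicates 3 or 4). *Scd1*, stearoyl-CoA desaturase, was at 2990, 2250, 2760, 4540 and 3510 CPM without and at 5450, 5060, 6850, 10600 and 3770 CPM with DHT, with DHT replicate 5 inside the range of the orchiectomized mice (log2 fold change 0.98, SE 0.33, adjusted P = 0.0993). *Pnpla3*, a lipase of lipid droplets, was nearest to the threshold (log2 fold change 1.17, SE 0.32, adjusted P = 0.0516). Subunits of oxidative phosphorylation had a median of 0.30, with 48 of 50 positive and 0 called. Of 18 adipocyte genes *Plin4*, a lipid droplet coat protein, was higher, at 314, 196, 394, 346 and 372 CPM without and at 492, 502, 487, 585 and 533 CPM with DHT (log2 fold change 0.68, SE 0.15, adjusted P = 0.0245), and was not called without orchiectomy replicate 4 or DHT replicates 3, 4 or 5. The fat left on each aorta was not measured, and its part in these values was not tested. With all libraries no call was made among the 21 cholesterol genes, the 6 and 13 clock genes that peak with *Arntl* and *Dbp*, the 15 insulin-like growth factor genes or the 13 brown fat genes. Without orchiectomy replicate 2, the brown fat gene *Dio2*, which activates thyroid hormone, was called lower. *Lss* of cholesterol synthesis was called higher without orchiectomy replicate 5, and *H19*, an imprinted noncoding RNA next to *Igf2*, without DHT replicate 1. *H19* was chosen after its values were seen.

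Of 15 tested genes of the interleukin 6 family and of inflammatory cytokines 1 was lower and 0 higher, with a median of -0.43. That is 6.67% of the list, against 3.80% of all genes tested. The lowered gene was *Il33*, an alarmin of the interleukin 1 family, at 25.1, 49.8, 47.1, 40.1 and 46.2 CPM without and at 27.5, 25.7, 20.6, 20.4 and 21.7 CPM with DHT. Orchiectomy replicate 1 was inside the range of the DHT libraries (log2 fold change -0.84, SE 0.18, adjusted P = 0.0206), and *Il33* was not called without orchiectomy replicates 3 or 4 or DHT replicates 3, 4 or 5. Of 16 tested immune checkpoint genes 2 were lower (12.5%) and 0 higher, with a median of -0.39, and 0 were called without orchiectomy replicates 2, 3 or 4 or DHT replicates 1, 3, 4 or 5. *Vsir* (VISTA), an inhibitory ligand, was at 45.4 to 87.9 CPM without and 21.3 to 38 CPM with DHT (log2 fold change -0.89, SE 0.21, adjusted P = 0.03), and *Btla*, an inhibitory receptor of lymphocytes, at 0.538 to 10.8 and 0.257 to 1.03 CPM with overlapping groups (adjusted P = 0.0387). *Il6* itself had 0 to 6 counts per library after orchiectomy and 0 to 1 with DHT. Counts of *Pdcd1*, the gene of the checkpoint receptor PD-1, were 1 to 19 (0.0814 to 1.68 CPM) after orchiectomy and 2 to 6 (0.171 to 0.541 CPM) with DHT. Both were under the filter on low counts, and in the fit without that filter neither was called, with a log2 fold change of -1.34 (SE 0.60, adjusted P = 0.231) for *Pdcd1* and an adjusted P value of 0.613 for *Il6*.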

How the data were processed

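RNA-Seq was performed on whole aortas of 15 mice, 5 per group, and groups and replicate numbers were taken from the labels. Each library came from 1 aorta, so that P values refer to the spread between mice. Per gene symbol, the files the authors deposited give whole-number counts that are not normalized. The submitters' processing notes name mm10, STAR, Cufflinks and DESeq2 without saying what each did; the counting program, its strand setting and the annotation are not given in the sources used here. The 2 entries that are not genes (6.26% to 14.4% and 1.34% to 1.97% of counts) were left out.

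For testing, edgeR 4.0.16 under R 4.3.3 was used: filterByExpr (minimum count 10, minimum total 15), TMM normalization and a quasi-likelihood model of the 3 groups over all 15 libraries, which share 1 estimate of the spread (biological coefficient of variation 0.297). Genes with a Benjamini-Hochberg adjusted P value under 0.05 were called. CPM were computed with TMM library sizes, and fold changes are DHT over orchiectomy. The pipeline was tested on simulated data with known changes. Gene positions and promoters came from RefSeq on GRCm38.p6; symbols without an entry were left out.

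Genes were named by rule: in each direction the 12 with the smallest P values and the 5 with the largest fold changes, among genes called with and without orchiectomy replicate 2 and not overlapping between groups; up to 4 genes per list; and *Pdcd1*, *Cd3e* and *Il6*. Some genes that the rule names are not reported here. Others serve as tissue checks or complete a pathway. The comparison, lists and members were chosen with earlier results of these data known. Alternatives were RLE size factors, no filter, DESeq2 1.42.0, voom with quality weights (limma 3.58.1), a fit of only the 10 orchiectomized libraries, the replicate number as a block, a robust fit, an unadjusted P value under 0.01, and leaving out each library. Leaving out replicates 2 and 3 together, and replicate 2 from the fit of 10, were added after the data were seen. Figures were drawn with Python 3.11.15 and matplotlib 3.10.9.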

Additional observations from a re-analysis of the deposited data

Results flagged for a closer look

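In groups of 5 libraries, 1 library stood apart from the other 4 in 20 of 260 groups examined, that is, its distance to the nearest other library took more than 0.71 of the range of the group, both on the log2 scale of CPM plus 0.5. Chance alone does so in about 1 in 20 groups, or 13 of 260. Of the 20, 9 were orchiectomy replicate 2, the library in which lung and heart marker genes were high. There *Ltf* was at 1120 CPM (share of the range 0.889), *Krt7* at 127 CPM (0.809), *Krt8* at 278 CPM (0.803), *Scnn1a* at 96.9 CPM (0.957), *Des* at 859 CPM (0.754), *C6* at 10.5 CPM (0.734) and *H2-Ab1* at 497 CPM (0.739), each the highest of the group, while *Vcl*, a contractile gene, was the lowest of the group at 281 CPM, against 561 to 739 CPM in the other 4 (0.716). The tight junction gene *Cgn* was also highest in this library (0.77). *Serpina3k* was highest in orchiectomy replicate 5, at 1.79 CPM (0.773), *C4a* in replicate 1, at 0.538 CPM (0.716), and *Ptcra* had its only counts of the group, 2, in replicate 3 (share 1).

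Among the DHT libraries, *Mthfd2* was lowest in replicate 4, at 38.1 CPM against 55.8 to 60.5 CPM in the other 4 (0.823), and was still above all libraries without DHT. *Ibsp* was lowest in replicate 3, at 4.49 CPM (0.823), and *Tcf7* in replicate 5, at 1.24 CPM (0.731). *Selplg* and *Vsir* were lowest in replicate 1, at 3.25 CPM (0.759) and 21.3 CPM (0.727). *Cpne7* was highest in replicate 2, at 6.13 CPM (0.733), and *C4b* in replicate 5, at 273 CPM (0.732). *Glycam1* had its only count of the group in replicate 3 (share 1).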

How the results depend on the processing

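All results below are given as genes higher and lower with DHT, against 130 and 536. DESeq2 gave 451 and 834, voom with quality weights 189 and 337, the fit of only the 10 orchiectomized libraries 55 and 113 (101 and 148 without orchiectomy replicate 2) and an unadjusted P value under 0.01 gave 347 and 1026. RLE size factors (152 and 483), no filter (124 and 417) and a robust fit (129 and 538) stayed within 1.5 times. Leaving out 1 library gave 43 to 217 higher and 138 to 678 lower genes, and leaving out orchiectomy replicates 2 and 3 gave 23 and 66. The causes were not tested.

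With the replicate number as a block there were 59 higher and 333 lower genes. The numbers are not shown to pair mice: deviations of same-numbered libraries from their group means correlated at 0.05, 0.09, -0.47, 0.46 and 0.24, and 1 of 5 libraries correlated best with its own number.

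Of 101 genes called and named in the text, 63 were called in all 15 fits that left out 1 library, 18 were not called without orchiectomy replicate 2 and 36 were not called without DHT replicate 5. None reversed its direction in the alternatives run. List medians moved by less than the spread in 1214 alternatives and by more in 34. The spread is the standard deviation of the list's mean log2 CPM over the 5 orchiectomized libraries. It includes replicate 2, which can widen it, so this tally does not show that the medians are stable. *Pdcd1* and *Il6*, at a few counts in most libraries, were tested only without the filter on low counts and were not called.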

Other observations

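The genes in this paragraph were chosen after their values were seen, among those called with all libraries and in each of the 15 fits that left out 1 library. *Ptprc* (CD45), carried by all leukocytes, was at 9.80, 50.7, 37.9, 45.8 and 18.4 CPM without and at 5.73, 9.10, 6.54, 6.79 and 7.14 CPM with DHT (log2 fold change -2.20, SE 0.39, adjusted P = 0.0103). All DHT libraries were below all others of this comparison, and the spread after orchiectomy was wide. *Thbs1*, thrombospondin-1, a matrix glycoprotein that restrains angiogenesis, was at 131, 323, 155, 150 and 222 CPM without and at 52.9, 80.6, 73.6, 50 and 41.3 CPM with DHT, and the controls, at 114 to 289 CPM, were also above all DHT libraries (log2 fold change -1.72, SE 0.29, adjusted P = 0.00841). *Ackr3*, a scavenger receptor for the chemokine CXCL12, fell from a mean of 127 to 65.8 CPM without overlap. *Lrp2* (megalin), an endocytic receptor that also takes up carriers of steroids, was at 1.18, 11.8, 3.06, 3.09 and 4.15 CPM without and at 0.171, 0.541, 0.385, 0.247 and 0.207 CPM with DHT, without overlap and with a log2 fold change of -3.86 (SE 0.59, adjusted P = 0.00553; -3.16 without orchiectomy replicate 2). On the raised side, *Angpt4*, an angiopoietin ligand of the *Tek* receptor, was at 27.9, 11.2, 16.1, 13.5 and 16.6 CPM without and at 34.3, 60.6, 71.8, 31.1 and 37.5 CPM with DHT, above all controls (12.5 to 18.6 CPM), while *Tek* itself was lower.

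Skeletal muscle genes were higher for 5 of 17 (2 without orchiectomy replicate 2, and 0 without orchiectomy replicates 3 or 4 or DHT replicates 3, 4 or 5), with a median log2 fold change of 2.6. *Mylpf*, a fast-muscle myosin light chain, was at 1.14 to 4.97 CPM without and 5.04 to 35.3 CPM with DHT, and at 2.65 to 34.5 CPM in the controls. *Myh2*, a fast myosin heavy chain, was at 0, 6.13, 59.4, 69.6 and 23.8 CPM in the DHT libraries, so that muscle RNA differed between aortas of 1 group. Cardiac genes were called for 0 of 12, with a median of -1.49 that turned to 2.07 without orchiectomy replicate 2. The muscle left on each aorta was not measured, and its part in these values was not tested.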
